A study of Homo sapiens with 8 samples.

Results

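The genes of glycogen metabolism were followed in SQ20B cells, an established line from a human head and neck squamous cell carcinoma, in 4 replicates kept in normoxia and 4 replicates kept in 0.5% oxygen for 16 h. The oxygen level of the normoxic cultures is not given in the sources used here. All cultures were grown in DMEM with glucose and serum, and no other treatment is given in the labels, so that 1 cell line, 1 oxygen level and 1 time stand for hypoxia. Polyadenylated RNA was sequenced, and the deposited table gives 1 FPKM value for each transcript in each condition, pooled by the authors over the replicates (fragments scaled for the length of the transcript and the size of the library). The spread between replicates is therefore not known here, these values allow no test, the authors' own test results were not used, and every difference below is a difference between 2 pooled values.

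The 9 genes were chosen by name, with earlier results of these data known, as the enzymes and regulator of glycogen synthesis and breakdown. These genes are GYG1, UGP2, GYS1, GBE1, PGM1, PGM2, PYGL, PYGB and PPP1R3C. They held 16 of the 24812 listed transcripts, and 9 of the 14528 genes whose RefSeq identifiers could be paired with a symbol. All 9 genes and 14 of the 16 transcripts had a mean of at least 0.5 FPKM over the conditions, the limit used for all counts, which 12106 genes and 18190 transcripts passed. A gene's level is the sum over its listed transcripts, and a log2 change is log2(FPKM + 0.1) under hypoxia less the same quantity under normoxia. The added 0.1 understates the changes of genes with low FPKM. A gene or transcript was counted as higher or lower where it differed by at least 1.5-fold on this scale.

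Glycogen is the branched glucose polymer in which animal cells store sugar. Glycogenin (GYG1) primes a new particle, phosphoglucomutase (PGM1) turns glucose 6-phosphate into glucose 1-phosphate, UGP2 converts that to UDP-glucose, glycogen synthase (GYS1) lengthens the chains and the branching enzyme (GBE1) adds branch points. Glycogen phosphorylase (PYGL and PYGB here, named for liver and brain) releases glucose 1-phosphate again, and PPP1R3C, known as protein targeting to glycogen, brings protein phosphatase 1 to the particle, where dephosphorylation activates the synthase and inactivates the phosphorylase. Storage of glycogen under low oxygen is a known response of many cultured cell types.

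The cells carried transcripts of squamous epithelium markers, with KRT5 at 398 FPKM in normoxia and 442 FPKM in hypoxia and TP63 at 42.8 and 44.6 FPKM. Of the 8 squamous markers fixed for this check, 6 were analysed, and KRT14 and PKP1 were not. KRT17 was at 50.5 FPKM in normoxia and 56.2 FPKM in hypoxia, SFN at 16.9 and 14.6 FPKM, and DSG3 at 16.45 and 12.8 FPKM. KRT6A, from 5.10 to 3.26 FPKM, was the only one of the 6 past 1.5-fold. Of the 13 markers of liver, skeletal muscle, fibroblasts and leukocytes, only LUM (0.126 and 0.103 FPKM) and CD68 (2.37 and 2.86 FPKM) were analysed here. Bulk values of this kind cannot tell a change of RNA per cell from a change in the share of cells that express a gene.

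Of the 9 genes, 5 were higher in hypoxia by at least 1.5-fold (PPP1R3C, GBE1, PGM1, GYS1 and PGM2) and none was lower by that much. Across all 12106 genes, 9.95% were higher by at least 1.5-fold and 11.2% were lower. The log2 changes of the 9 genes ran from -0.26 to 3.15 with a median of 0.60, and the median of all genes was -0.07. By the 1.5-fold limit itself, each of the 5 genes lies among the top 9.95% of log2 changes, with PGM2 the lowest at percentile 90.5. The genes that stayed within 1.5-fold were the primer GYG1, the UDP-glucose enzyme UGP2 and the phosphorylases PYGL and PYGB.

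**Figure D1:**
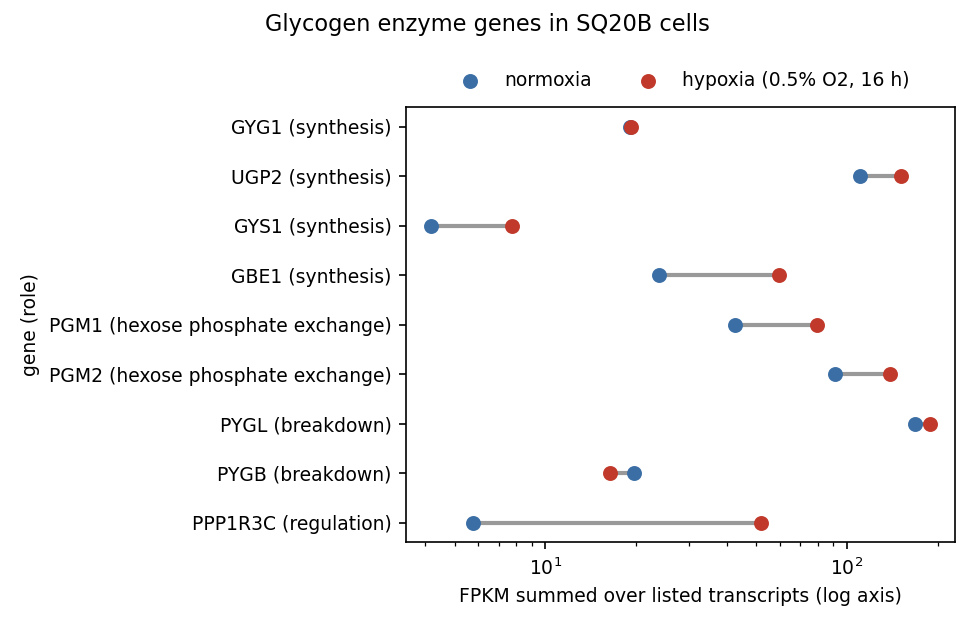
FPKM summed over the listed transcripts (log axis) of the 9 glycogen genes, with 1 point for the authors' pooled value in normoxia and 1 in hypoxia. PPP1R3C has the longest line, from 5.76 to 52.1 FPKM, the points of GYG1 lie on each other near 19 FPKM, and PYGB is the only gene whose hypoxia point lies to the left.

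Scaling moved these counts. Total FPKM over the table was 536005 for normoxia against 458431 for hypoxia. With both columns scaled to equal sums, which adds 0.23 to the log2 changes, 18.3% of all genes were higher and 4.94% lower by 1.5-fold, the median of all genes was 0.15, and 6 of the 9 glycogen genes were higher, with UGP2 added. Quantile normalization gave 11.6% and 8.44%, again with 6 of the 9 glycogen genes higher, and centring on the median gene gave 12.4% and 8.76%, with 5 of the 9 higher. No scaling turned the direction of any of the 9 genes.

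**Figure D2:**
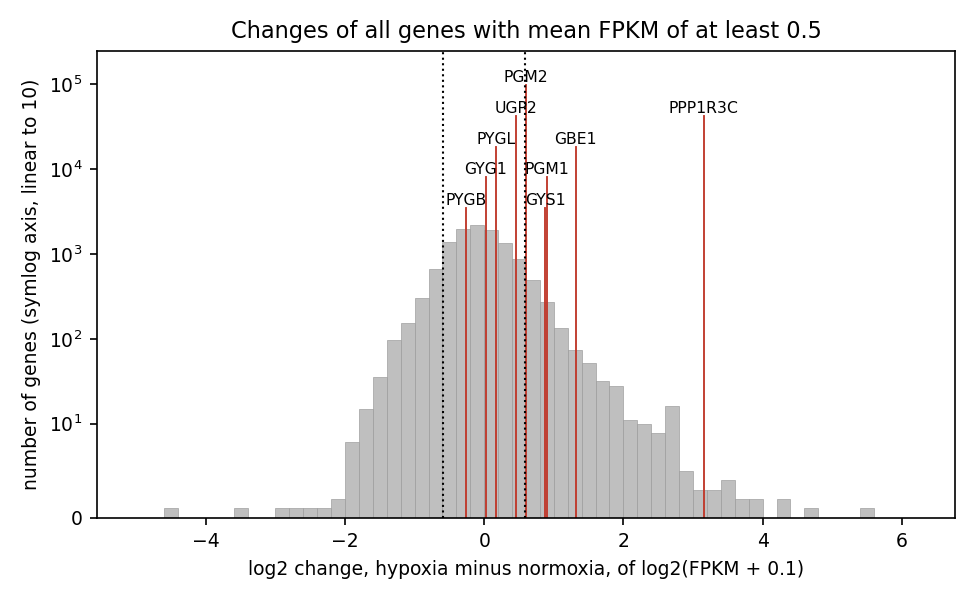
Number of genes (symlog axis, linear up to 10) by log2 change between hypoxia and normoxia for the 12106 genes with a mean of at least 0.5 FPKM, in grey bars, with a red line for each glycogen gene and dotted lines at 1.5-fold. PPP1R3C lies in the thin right tail at 3.15, GBE1 at 1.31, and PYGB is the only red line left of 0.

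In the synthesis branch, GBE1 had the largest change. The branching enzyme, on chromosome 3 of hg19 (81538850 to 81810950), stood at 23.9 FPKM in normoxia and 59.5 FPKM in hypoxia. This is a log2 change of 1.31, or 2.49-fold, at percentile 98.3 of all genes, and it rests on 1 listed transcript, NM_000158.

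GYS1, the synthase found in muscle and most other tissues, lies on chromosome 19 (49471382 to 49496610) and had the lowest summed level of the 9 genes in both conditions. Its summed level was 4.17 FPKM in normoxia and 7.73 FPKM in hypoxia, a log2 change of 0.87 (1.83-fold). The sum covers the coding transcript NM_001161587, at 3.02 and 5.19 FPKM, and the noncoding NR_027763, at 1.15 and 2.54 FPKM. The main coding RefSeq transcript of the gene, NM_002103, was not analysed here, so neither the whole level of GYS1 nor its place in the order of levels is known from this sum.

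GYG1, on chromosome 3 (148709195 to 148745456), had the smallest change of the 9 genes. It was at 19.0 FPKM in normoxia and 19.3 FPKM in hypoxia, a log2 change of 0.02. The ratio of the branching enzyme to the primer, both per length, was 1.25 in normoxia and 3.09 in hypoxia. Almost all of the GYG1 signal, 96.8% in normoxia and 97.1% in hypoxia, was assigned to NM_001184720, and its other transcripts, NM_001184721 and NM_004130, stayed below 0.5 FPKM.

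UGP2, which makes the UDP-glucose that also serves glycosylation and galactose metabolism, lies on chromosome 2 (64068098 to 64118696). Its summed level was 110 FPKM in normoxia and 151 FPKM in hypoxia, a log2 change of 0.45 (1.37-fold), just short of the 1.5-fold limit. Under this sum its 2 listed transcripts moved apart. NM_006759 was at 44.4 FPKM in normoxia and 105 FPKM in hypoxia, a log2 change of 1.24 (2.36-fold). NM_001001521 was at 65.9 and 46.1 FPKM, that is, 1.43-fold lower in hypoxia (log2 change -0.51). The share of NM_006759 in the summed UGP2 level went from 40.2% to 69.5%, so that the more abundant transcript in normoxia was the less abundant in hypoxia.

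The share of a UGP2 transcript shifted by 29.2 percentage points. Among the 3753 genes with at least 2 transcripts at a mean of 0.5 FPKM or more, 22 (0.586%), UGP2 included, had a transcript whose share moved by at least as much, and 133 (3.54%) had transcripts whose log2 changes differed by at least the 1.75 of UGP2. The opposite directions of the UGP2 transcripts were also seen with equal sums (1.47 for NM_006759 and -0.29 for NM_001001521) and with quantile normalization (1.46 and -0.32). The split of reads between overlapping transcripts is an estimate of the authors' software, and its error was not analysed here.

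**Figure D3:**
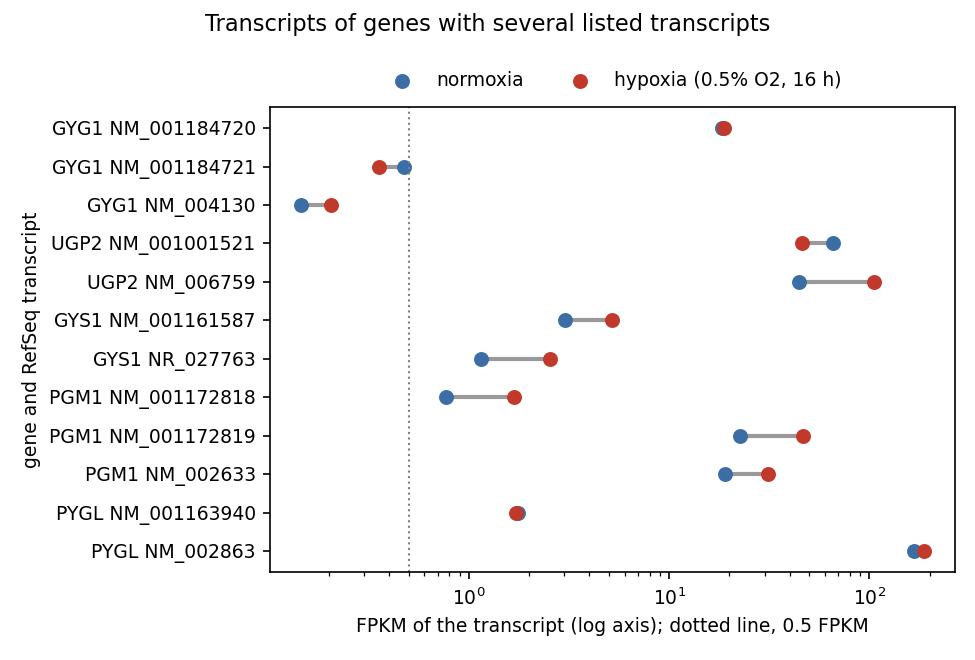
FPKM (log axis) of each listed transcript of the 5 glycogen genes with more than 1, with 1 pooled value in normoxia and 1 in hypoxia. The lines of the UGP2 transcripts point in opposite directions, NM_006759 from 44.4 to 105 FPKM and NM_001001521 from 65.9 to 46.1 FPKM, and all 3 PGM1 transcripts and both GYS1 transcripts lie further right in hypoxia.

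PGM1 and PGM2 were both counted as higher. PGM1, on chromosome 1 (64058947 to 64125916), exchanges the phosphate of glucose between carbon 1 and carbon 6 and so works in both directions of glycogen metabolism. It was at 42.5 FPKM in normoxia and 79.7 FPKM in hypoxia, a log2 change of 0.90 (1.87-fold). Each of its 3 listed transcripts was past 1.5-fold, with log2 changes of 1.04 for NM_001172819, 1.03 for NM_001172818 and 0.71 for NM_002633. The share of NM_002633 in the sum was 44.8% in normoxia and 39.3% in hypoxia.

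PGM2, on chromosome 4 (37828282 to 37864559), encodes a relative that prefers ribose and deoxyribose phosphates to glucose phosphates. It was the more abundant of the pair, at 91.2 FPKM in normoxia and 138.5 FPKM in hypoxia. Its log2 change of 0.60 (1.52-fold) lay just past the limit. The ratio of PGM2 to PGM1 was 2.15 in normoxia and 1.74 in hypoxia, and their summed level went from 134 to 218 FPKM.

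Both phosphorylases stayed within 1.5-fold. PYGL, on chromosome 14 (51371935 to 51411248), was the most abundant of the 9 genes in both conditions, at 168 FPKM in normoxia and 188 FPKM in hypoxia, a log2 change of 0.17. The isoform named for brain, PYGB, on chromosome 20, was at 19.7 and 16.4 FPKM, a log2 change of -0.26 and the only one below 0 among the 9. PYGL made up 89.5% of the summed phosphorylase level in normoxia and 92.0% in hypoxia.

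The table places PYGB in a locus (25228706 to 25371618) together with ABHD12, whose summed level was 25.7 FPKM in normoxia and 18.3 FPKM in hypoxia. The libraries were stranded, but whether strand was used to assign reads to these overlapping genes is not given in the sources used here. The part of shared reads in the PYGB value was not tested. Of the PYGL signal, 99.0% in normoxia and 99.1% in hypoxia was assigned to NM_002863. The muscle phosphorylase PYGM, the liver synthase GYS2 and the second glycogenin GYG2 were not analysed here.

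PPP1R3C had the largest change of the 9 genes and stood at percentile 99.87 of all genes. On chromosome 10 (93388197 to 93392858), with 1 listed transcript, NM_005398, it was at 5.76 FPKM in normoxia and 52.1 FPKM in hypoxia. This is a log2 change of 3.15, or 8.91-fold, and 2.97 with 1 in place of 0.1 added. In the order of levels among the 9 genes it stood eighth in normoxia and sixth in hypoxia, while PYGB went from sixth to eighth and the others kept their place. Without replicate values, it is not known which neighbours in this order differ beyond their spread.

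Counted by transcript, 9 of the 14 transcripts of these genes with a mean of at least 0.5 FPKM were higher by at least 1.5-fold and none was lower. Of all 18190 such transcripts, 10.5% were higher and 14.3% were lower. The 9 transcripts belonged to 6 genes, since NM_006759 brought in UGP2. Transcripts of the same gene share reads and are not separate evidence.

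The promoters of the genes are shown because 5 of them were higher together and because hypoxia-inducible factors bind the core letters ACGTG and GCGTG. Both motifs were searched on either strand in the 250 bases before the RefSeq start of each gene (sequences and starts from RefSeq, GRCh38.p14), and CACGTG counts as ACGTG on each strand. ACGTG was found for 5 of the 9 genes (PPP1R3C, GBE1, PGM2, GYG1 and UGP2), against 18.7% of all 27305 promoters, 23.8% of those of genes past the FPKM limit and 24.4% of those of genes higher by at least 1.5-fold. GCGTG was found for 6 of the 9 genes, against 31.9% of all promoters, 45.8% of those past the FPKM limit and 40.7% of those higher by at least 1.5-fold. Promoters of PGM1 and PYGL held neither motif in this window. This search took 1 start per gene, so any other start of PGM1, which has 3 listed transcripts, was not covered.

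Below, the 250 bases before the start are printed 5′ to 3′ on the strand of the gene for the gene with the largest change (PPP1R3C, chr10:91633072-91633321, minus strand), the next largest (GBE1, chr3:81761646-81761895, minus strand), a higher gene with no motif (PGM1, chr1:63593161-63593410, plus strand) and the gene with the smallest change (GYG1, chr3:148991290-148991539, plus strand). Capitals mark the motifs on either strand.
PPP1R3C: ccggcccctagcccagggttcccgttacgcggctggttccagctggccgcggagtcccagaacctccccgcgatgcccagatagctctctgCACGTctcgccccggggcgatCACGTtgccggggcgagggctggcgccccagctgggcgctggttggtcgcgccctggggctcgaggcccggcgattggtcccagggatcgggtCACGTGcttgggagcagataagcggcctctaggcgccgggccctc
GBE1: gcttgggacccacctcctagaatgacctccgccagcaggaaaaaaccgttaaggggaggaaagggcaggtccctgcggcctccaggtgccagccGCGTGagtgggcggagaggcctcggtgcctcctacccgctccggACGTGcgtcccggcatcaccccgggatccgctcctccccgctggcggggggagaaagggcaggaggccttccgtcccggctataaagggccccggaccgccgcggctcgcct
PGM1: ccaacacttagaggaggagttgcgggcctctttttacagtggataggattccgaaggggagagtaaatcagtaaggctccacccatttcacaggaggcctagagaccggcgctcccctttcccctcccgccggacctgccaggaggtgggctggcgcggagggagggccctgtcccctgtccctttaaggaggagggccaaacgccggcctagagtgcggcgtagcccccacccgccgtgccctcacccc
GYG1: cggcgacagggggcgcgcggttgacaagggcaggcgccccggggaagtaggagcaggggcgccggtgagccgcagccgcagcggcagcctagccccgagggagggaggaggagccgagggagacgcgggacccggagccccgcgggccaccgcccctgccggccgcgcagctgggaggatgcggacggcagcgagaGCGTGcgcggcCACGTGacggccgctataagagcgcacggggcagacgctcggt

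The PPP1R3C window held ACGTG at positions -159, -138 and, as CACGTG on both strands, at -45 and -44, counted so that -1 is the base before the start. The GBE1 window held ACGTG at -112 and GCGTG at -156. The GYG1 window also held CACGTG, at -43 and -42, and the log2 change of GYG1 was 0.02. Whether these motifs bear on the changes was not tested. ACGTG stood before 3 of the 5 higher genes and before 2 of the other 4, and GCGTG before 3 of the 5 and 3 of the other 4. A match is a description of the letters in this window and not a bound site.

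For UGP2, 2 coding transcripts of GENCODE (release 44, on GRCh37) were examined, whose starts on chromosome 2 lie 927 bases apart. No other UGP2 transcript of GENCODE was examined. UGP2-202 starts at 64068103 and codes for 497 codons, and UGP2-201 starts at 64069030 and codes for 508 codons. The files used here do not pair these with NM_001001521 and NM_006759, so neither start is assigned to a transcript. The 250 bases before each start in GRCh37 (chr2:64067853-64068102 and chr2:64068780-64069029, plus strand) are shown beside each other because the listed transcripts moved apart.
UGP2-202: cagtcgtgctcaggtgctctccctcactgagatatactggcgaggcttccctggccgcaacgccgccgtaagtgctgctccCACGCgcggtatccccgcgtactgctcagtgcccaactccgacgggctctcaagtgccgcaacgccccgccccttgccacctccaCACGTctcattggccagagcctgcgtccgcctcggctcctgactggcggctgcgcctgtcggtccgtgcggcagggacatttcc
UGP2-201: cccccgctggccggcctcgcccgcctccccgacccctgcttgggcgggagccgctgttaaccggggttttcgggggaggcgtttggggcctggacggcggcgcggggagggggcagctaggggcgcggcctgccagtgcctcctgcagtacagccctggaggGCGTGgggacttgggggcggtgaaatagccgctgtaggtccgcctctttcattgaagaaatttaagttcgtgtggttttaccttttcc

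The window before UGP2-202 held ACGTG and GCGTG once each on the opposite strand, and that before UGP2-201 held GCGTG once, at position -88. Both windows had a GC content of 67.2%.

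A list of 27 other glycogen genes was fixed with earlier results of these data known. Of the 27 genes, 22 were analysed and 19 passed the FPKM limit. Among these, 4 were higher by at least 1.5-fold (PPP1R3G, PPP1R3B, STBD1 and PPP1R3E) and none was lower. Across all 12106 genes, 9.95% were higher and 11.2% were lower by that much. The median log2 change of the 19 genes was 0.01. Of the 4 genes, 3 encode relatives of PPP1R3C that also bring protein phosphatase 1 to glycogen. PPP1R3B, best known from liver, was at 2.51 FPKM in normoxia and 7.96 FPKM in hypoxia, a log2 change of 1.63. PPP1R3E was at 0.772 and 1.68 FPKM (1.03). PPP1R3G was at 0.0929 and 1.10 FPKM, so that its log2 change of 2.64 depends on the added 0.1, and it passed the limit through its level in hypoxia.

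The remaining targeting subunits did not pass 1.5-fold. PPP1R3D was at 9.35 FPKM in normoxia and 7.74 FPKM in hypoxia, and PPP1R3F at 0.503 and 0.601 FPKM. The summed level of the 6 analysed PPP1R3 genes was 19.0 FPKM in normoxia and 71.2 FPKM in hypoxia. In normoxia PPP1R3D was the most abundant of them, and PPP1R3C made up 30.3% of the sum. In hypoxia PPP1R3C made up 73.2%.

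The catalytic subunits that these proteins bind had log2 changes below 0 in the deposited values. PPP1CB, the most abundant in normoxia, was at 246 FPKM in normoxia and 174 FPKM in hypoxia (log2 change -0.50), PPP1CA at 55.4 and 44.4 FPKM (-0.32) and PPP1CC at 204 and 184 FPKM (-0.15). None passed 1.5-fold, and PPP1CC turned above 0 with equal sums (0.08) and with quantile normalization (0.13). The level of PPP1CB was 42.8 times that of PPP1R3C in normoxia and 3.33 times in hypoxia.

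STBD1, which binds glycogen and is known for its part in the transport of glycogen to lysosomes, was at 4.21 FPKM in normoxia and 13.2 FPKM in hypoxia, a log2 change of 1.62. Its locus in the table also holds FAM47E and the readthrough transcript FAM47E-STBD1, and the split of reads between them was not tested. GAA, the lysosomal enzyme that degrades glycogen, was listed below the limit, at 0.189 and 0.195 FPKM.

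The 4 phosphorylase kinase genes past the limit, whose product activates phosphorylase, had log2 changes from -0.28 for PHKG2 to 0.26 for PHKA2. The glycogen synthase kinases were at -0.19 (GSK3A, 0.03 with equal sums) and 0.32 (GSK3B). No gene of these kinases passed 1.5-fold, and the phosphoglucomutase relatives PGM2L1 (0.28) and PGM3 (0.14) did not either.

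**Figure D4:**
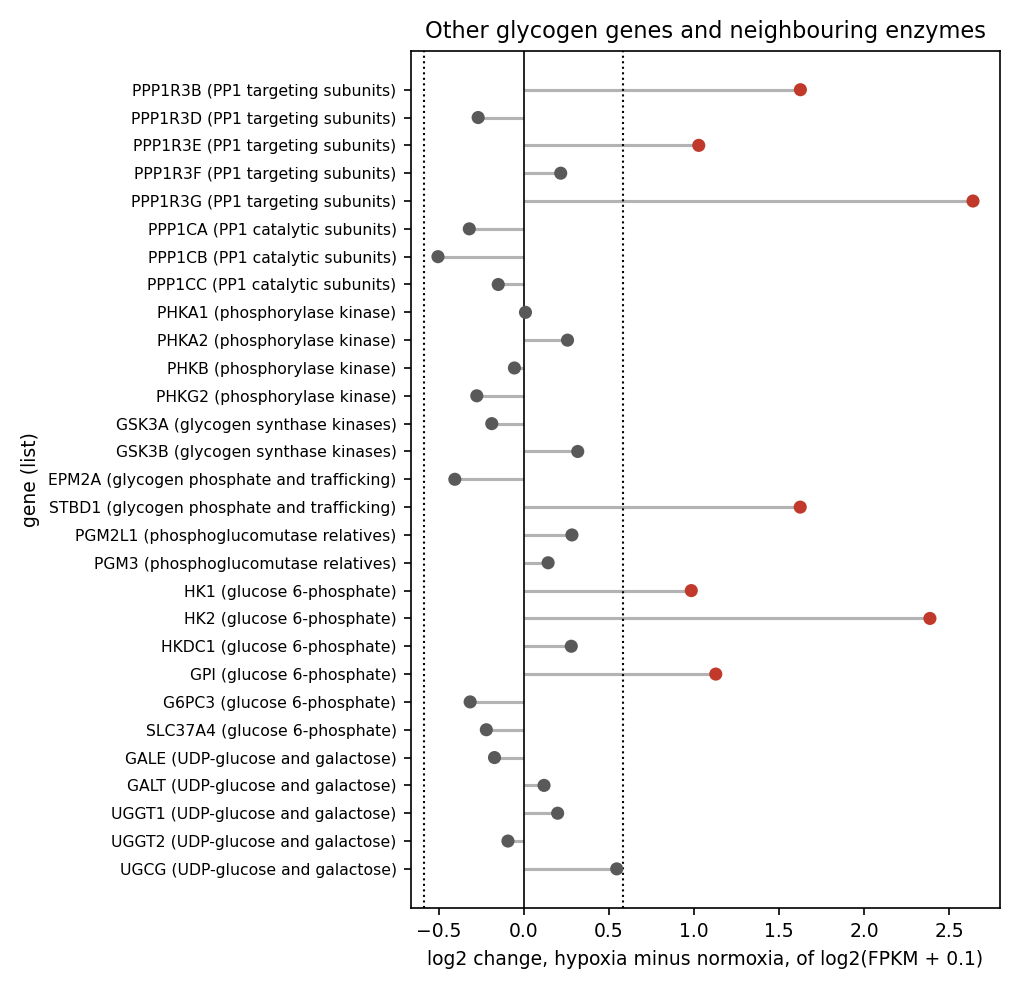
Log2 change between hypoxia and normoxia of other glycogen genes and of enzymes around glucose 6-phosphate and UDP-glucose, each with a mean of at least 0.5 FPKM, with dotted lines at 1.5-fold and red points past it. The 7 red points are PPP1R3B, PPP1R3E, PPP1R3G, STBD1, HK1, HK2 and GPI, all to the right, and no gene shown lies past the left dotted line.

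Glycogen branches from glycolysis at glucose 6-phosphate, and 7 of the 9 genes listed around this metabolite were analysed. HK1, HK2 and GPI were higher by at least 1.5-fold, against 9.95% of all genes. HK2, an inducible hexokinase that makes glucose 6-phosphate, was at 4.60 FPKM in normoxia and 24.5 FPKM in hypoxia, a log2 change of 2.39. HK1 was at 42.4 and 83.9 FPKM (0.98), and the ratio of HK1 to HK2 went from 9.22 to 3.43.

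GPI, which passes glucose 6-phosphate on to glycolysis, was at 36.7 FPKM in normoxia and 80.3 FPKM in hypoxia, a log2 change of 1.13 beside 0.90 for PGM1, which passes it towards glycogen. The hydrolysis of glucose 6-phosphate was represented by G6PC3 (-0.315) and its transporter SLC37A4 (-0.22, and above 0 at 0.002 with equal sums), neither past 1.5-fold.

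None of the 5 analysed genes that use UDP-glucose or belong to galactose metabolism passed 1.5-fold in the deposited values. The highest was UGCG, which makes glucosylceramide from UDP-glucose, at 87.2 FPKM in normoxia and 127 FPKM in hypoxia. Its log2 change of 0.55 was close to the 0.45 of UGP2 and passed 1.5-fold under each of the 3 scalings, with equal sums (0.77), quantile normalization (0.82) and median centring (0.62).

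**Figure D5:**
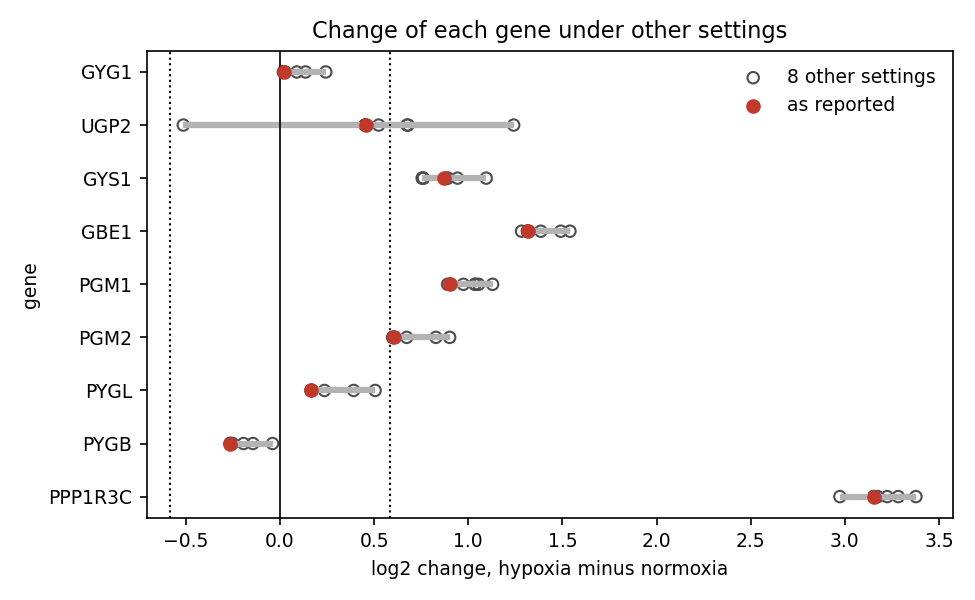
Log2 change of each glycogen gene as reported (red) and under 8 other settings (open circles), with dotted lines at 1.5-fold. PPP1R3C runs from 2.97 to 3.38, UGP2 has the widest line, from -0.51 (its most abundant transcript in normoxia alone) to 1.24 (the most abundant by the mean of the conditions), and PYGB stays left of 0 throughout.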

How the data were processed

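Poly(A)-selected stranded libraries of SQ20B cells were sequenced by the authors, aligned to hg19 with STAR (version 2.3.0.1) and quantified with the Cufflinks suite (version 2.1.1) on RefSeq annotation. The deposited FPKM were computed by the authors, who pooled 4 replicates into 1 value for each condition. Where FPKM divides by all mapped reads, a change of abundant RNAs shifts all other values. The authors state standard parameters, and whether these libraries were scaled in this way is not given in the sources used here. Fragment counts and depths of single replicates were not analysed here, so no interval, detection floor or test is given. The table's columns of fold changes, test statistics, p-values and q-values are the authors' own comparison and were not used. Its loci were counted from 1.

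RefSeq identifiers were paired with symbols through the annotation of GRCh38.p14, which matched 24293 identifiers (97.9%). FPKM was summed per gene, 0.1 was added before log2, and genes with a mean below 0.5 FPKM were left out of counts. Alternatives were pseudocounts of 1 and 0.01, 3 scalings, other filters (none, or 1 FPKM), other fold limits (1.2 and 2), coding transcripts only and the most abundant transcript (by the mean or, added after the data were seen, in normoxia). With no spread known, a value was taken as moved where it crossed 1.5-fold or differed by more than 1.2-fold. The computation was tested on simulated data with planted changes and little noise. That checks the arithmetic only and says nothing of the spread between replicates, low FPKM or the split of reads between transcripts. All 9 genes, every gene of the fixed lists past 1.5-fold and the tissue counterparts GYS2, GYG2 and PYGM were to be named, and other genes of these lists were named after their values were seen. Some genes of the lists are counted but not reported here by name. The genes and lists were chosen with earlier results of these data known. Scripts ran under Python 3.11.15 and used pandas 2.3.3, numpy 2.4.6 and matplotlib 3.10.9.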

Additional observations from a re-analysis of the deposited data

How the results depend on the processing

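Of 72 values for single glycogen genes under other settings, 66 differed by less than 1.2-fold from the value given and stayed on the same side of 1.5-fold, and no gene past 1.5-fold turned direction. Many of the 66 could not have moved. GBE1, PGM2, PYGB and PPP1R3C have 1 listed transcript, so the choices among transcripts gave their value again. Taking coding transcripts only left every gene but GYS1 as it was. Equal sums and median centring shift all genes by nearly the same amount, below 1.2-fold, so only a crossing of 1.5-fold could count there. UGP2 passed 1.5-fold with equal sums (0.68), with quantile normalization (0.675) and when NM_006759, its most abundant transcript by the mean of the conditions, was taken alone (1.24). That choice rests on the level in hypoxia: with the most abundant transcript in normoxia, NM_001001521, an alternative chosen after the data were seen, UGP2 turned to -0.514. Quantile normalization also moved PGM2 to 0.90, PYGL to 0.505 and the median of the 9 genes to 0.89. Without GYS1, also chosen after the data were seen, the median of the remaining genes was 0.53, since it then fell between PGM2 and UGP2. At 2-fold, 2 of the 9 genes (PPP1R3C and GBE1) were higher, against 3.21% of all genes. At 1.2-fold, 6 of the 9 were higher and 1 (PYGB) was lower, against 23.8% and 33.0% of all genes. At the same 1.2-fold, 6 of the 19 other glycogen genes were higher and 5 were lower. Of the 12 genes around glucose 6-phosphate and UDP-glucose, 5 were higher and 2 were lower. The lower counts are to be read beside the 33.0% of all genes that were lower. Without the FPKM limit, 1 of the 22 other glycogen genes was lower (NHLRC1, named after its value was seen), against 10.3% of all genes. Over all genes, the 1204 higher and 1361 lower became 719 higher and 1031 lower with a pseudocount of 1. They became 2221 higher and 599 lower with equal sums, 2881 and 3990 at 1.2-fold, and 388 and 317 at 2-fold. Of 36 transcript values under other settings, 3 moved. No paired analysis was possible because only 1 pooled value per condition was analysed, and the planned fits without each replicate were not run for the same reason. Depths were not analysed here, so the lowest values, such as that of PPP1R3G in normoxia, carry an unknown error.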
